A study of Mus musculus with 6 samples.

Results

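Tight junctions seal the space between neighbouring endothelial cells and limit what passes between them. Claudins and occludin are membrane proteins whose extracellular loops pair across the gap, and junctional adhesion molecules (JAMs) are immunoglobulin-like proteins that mark the same contacts. Cytoplasmic plaque proteins such as ZO-1 and paracingulin join these membrane proteins to actin. In the stria vascularis, the capillary barrier between blood and the cochlear lateral wall depends on such contacts.

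The 9 genes described here were chosen by symbol: *Tjp1* and *Cgnl1*, which encode the plaque proteins ZO-1 and paracingulin, the JAM genes *F11r*, *Jam2* and *Jam3*, the claudin genes *Cldn1*, *Cldn11* and *Cldn12*, and *Ocln*, which encodes occludin. They are 9 of 24421 genes in the table. All 9 had a row, and 8 had enough reads to be tested. *Ocln* was below the filter on low counts and is given as reads per library.

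RNA came from 3 *Nhe6*-knockout (KO) and 3 wildtype (WT) cultures of primary endothelial cells, grown from dissociated stria vascularis of mice aged 10 to 12 postnatal days and left untreated. The methods describe the tissue as taken out together with the spiral ligament, the fibrous layer behind the stria. The KO mice carry a targeted disruption of *Nhe6* in every cell. Each culture pooled at least 6 mice and gave 1 library. The labels give the strain background of both groups as C57BL/6N, while the study's methods describe wildtype mice and backcrosses of C57bl6/j. They also state that cultures were purified by cell sorting. The comparison asks whether tight junction transcripts differed between the genotypes.

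Gene counts ranged from 25587097 to 29126232 reads per library. WT replicate 2 stood apart on the first principal component of log2 expression, at 106 against -28.5 to -6.52 for the other 5 libraries. KO replicates 1 and 2 were closer to each other than any other pair of libraries, with a chi-square per gene of 4.92 against 90.9 to 405, which is still more than counting error. Over all genes tested, the median SD of log2 counts was 0.154 among KO and 0.343 among WT cultures. Defining endothelial genes were uneven. *Emcn* had 397 to 18730 reads, and *Cdh5*, which encodes the endothelial cadherin, had 189 to 250 reads in KO and 2566 to 5039 in WT libraries. In contrast, *Pecam1* had at most 8 reads and *Tie1* at most 2 reads in a library, and *Cldn5*, which encodes the main claudin of barrier endothelium, had 0 reads in each of the 6 libraries. A count of 0 allows up to 3 reads, or 0.117 CPM (counts scaled by library size) in the smallest library. Because bulk RNA was sequenced, fewer cells of a type and less RNA per cell cannot be told apart.

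Promoter sequences from RefSeq (GRCm38.p6) were matched for 7 of the 9 genes, and *Jam2* and *Jam3* were not among them. They are shown for *Cldn1*, *F11r* and *Cldn11*, which all had their highest level in WT replicate 2. The lowest level of *Cldn11* was in KO replicate 3, as was that of *Cldn1*. Each run holds the 250 bases before the RefSeq start, 5′ to 3′ on the strand of the gene, with capitals at GC boxes (GGGCGG or CCGCCC) and at E-boxes of the form CACCTG or CAGGTG. The windows are chr16:26371840-26372089 (minus strand) for *Cldn1*, chr1:171437311-171437560 (plus strand) for *F11r* and chr3:31149670-31149919 (plus strand) for *Cldn11*. Gene positions given below come from GENCODE, whose starts differ, so the last bases of the *Cldn1* and *F11r* windows lie inside the GENCODE genes.
Cldn1: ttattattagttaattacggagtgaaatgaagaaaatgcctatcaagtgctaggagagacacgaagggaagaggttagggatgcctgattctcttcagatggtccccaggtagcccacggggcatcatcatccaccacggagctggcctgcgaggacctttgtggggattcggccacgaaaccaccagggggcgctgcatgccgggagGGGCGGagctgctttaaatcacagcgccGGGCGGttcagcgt
F11r: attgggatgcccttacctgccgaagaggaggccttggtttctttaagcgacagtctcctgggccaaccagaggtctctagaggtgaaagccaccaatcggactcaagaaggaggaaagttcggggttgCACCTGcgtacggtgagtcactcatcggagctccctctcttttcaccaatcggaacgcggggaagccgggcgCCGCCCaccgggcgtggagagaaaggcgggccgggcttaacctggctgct
Cldn11: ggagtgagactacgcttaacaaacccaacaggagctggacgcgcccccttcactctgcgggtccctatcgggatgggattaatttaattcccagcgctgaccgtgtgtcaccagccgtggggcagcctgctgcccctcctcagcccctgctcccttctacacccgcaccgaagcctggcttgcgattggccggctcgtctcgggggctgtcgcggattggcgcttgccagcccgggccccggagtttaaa
GC boxes numbered 2 in the *Cldn1* window, 1 in that of *F11r* and 0 in that of *Cldn11*. The *F11r* window held 1 E-box of this form, 122 bases before the start, and the other 6 genes had 0. Among 27025 promoters of the same length, 32.9% held a GC box and 17.1% held this E-box, so neither motif was rare.

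In edgeR's quasi-likelihood test, with p adjusted by Benjamini-Hochberg across the 13479 genes tested, 0 of the 8 tight junction genes had an adjusted p under 0.05, against 0.0668% of all genes, 0.0371% lower and 0.0297% higher in KO. At an unadjusted p under 0.05 the count was 2, *Cgnl1* and *Cldn1*, both lower in KO, against 5.71% of all genes in that direction. With DESeq2 the count after adjustment was 1, *Cgnl1*, against 1.82% of all genes lower in KO, and with limma-voom it was 0. Without WT replicate 2 it was 0 of 9 in edgeR's test, against 2.88% of all genes. The median log2 fold change of the 8 genes was -0.72, against -0.02 over all genes tested, where 6998 of 13479 values were below 0. Of the 8 values, 7 were below 0, *Jam3* being the exception. This depended on single wildtype cultures: the median was -0.45 with 5 of 8 below 0 without WT replicate 3, and -0.47 with 6 of 8 below 0 without WT replicate 2. With limma-voom and with the replicate block, 5 of 8 were below 0, at medians of -0.53 and -0.53. In 1 of the 8 genes, *Cgnl1*, the genotypes did not overlap, and among all genes 9.57% were lower in KO without overlap.

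**Figure D1:**
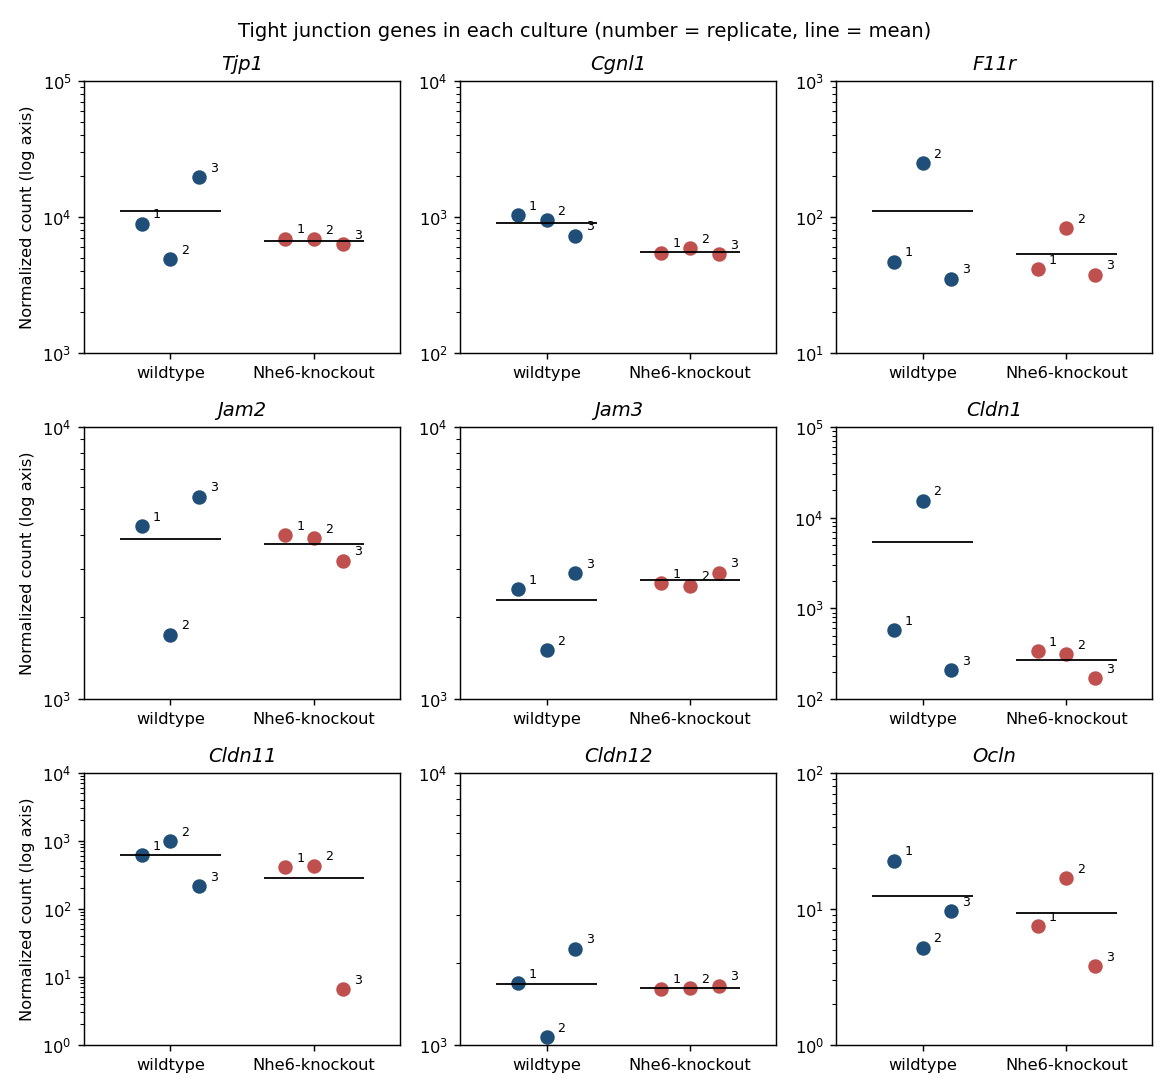
Normalized counts of the 9 tight junction genes in each culture on log axes, with WT in blue, KO in red, the replicate number beside each point and a line at the group mean. *Cgnl1* is the panel in which the genotypes do not overlap. WT replicate 2 is far above the other cultures for *Cldn1*, and KO replicate 3 is far below them for *Cldn11*.

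Among the plaque genes, *Cgnl1* had the most separate genotypes and *Tjp1* the highest level. *Cgnl1* (GRCm38, chromosome 9, 71626509 to 71771602) encodes a plaque protein of the cytoplasmic face of the contacts. Its normalized counts were 550, 593 and 534 in KO replicates 1 to 3 and 1039, 955 and 732 in WT replicates 1 to 3. Each KO culture was below each WT culture. Mean counts were 559 ± 30.5 in KO and 908 ± 159 in WT (SD, n = 3 each). The edgeR estimate on the log2 scale was -0.70 ± 0.17 (SE), adjusted p = 0.171. An exact two-sided permutation test gave p = 0.1, the smallest value for 3 against 3. DESeq2 gave *Cgnl1* an adjusted p of 0.0178. Adjusted p ran from there to 0.661 over 14 alternatives, while the log2 fold change stayed between -0.84 and -0.60. The summed levels of 3 marker lists also separated the genotypes. The 16 cell cycle genes summed to 8396 to 15328 normalized counts in KO and 2605 to 3940 in WT cultures. The 9 strial marginal genes summed to 6987 to 8103 in KO and 12040 to 16702 in WT, and the 10 Schwann cell genes to 7172 to 8364 and 10591 to 11713, lower in KO as *Cgnl1* was. Single genes carried both of these sums: *Atp1b2* and *Slc12a2* made up most of the strial sum and *Pmp22* most of the Schwann cell sum. Of the 9 strial genes, 6 had under 30 reads in every library, *Kcne1* and *Bsnd* having 0. *Atp1b2* overlapped between the genotypes, with 2059 normalized counts in WT replicate 2 against 4143 to 5244 in KO. The part of these lists in the *Cgnl1* difference was not tested.

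*Tjp1* lies on chromosome 7 from 65296165 to 65527781. It encodes ZO-1, the scaffold that ties claudins, occludin and JAMs to the cytoskeleton. Normalized counts of *Tjp1* were 6950, 6906 and 6310 in KO and 8961, 4895 and 19677 in WT replicates 1 to 3. The KO cultures lay close together, and the WT cultures lay on either side of them. WT replicate 3 had 2.84 times the mean of the other WT cultures. Mean counts were 6722 ± 358 (SD, n = 3) in KO and 11177 ± 7636 (SD, n = 3) in WT. The edgeR estimate on the log2 scale was -0.73 ± 0.47 (SE), adjusted p = 0.616. The WT SD exceeded this difference in means. Without WT replicate 3 the log2 fold change of *Tjp1* was -0.05 (adjusted p = 0.956), and without WT replicate 2, which had the fewest counts, it was -1.10 (adjusted p = 0.134). WT replicate 3 was also the library with the most reads of melanocyte genes: the 12 listed genes summed to 1215 normalized counts there and to 288 to 854 in the other 5 libraries. *Tyr* and *Mlana*, both of pigment cells, had 23 and 31 reads in it and at most 1 elsewhere. The part of these cells in the *Tjp1* level was not tested.

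No JAM gene passed the adjusted threshold. *Jam2* and *Jam3* had 1513 to 5534 normalized counts, and *F11r* had fewer than 100 counts in 5 of 6 libraries. *Jam2* (JAM-B), on chromosome 16 from 84774123 to 84825928, encodes a JAM that is typical of endothelium and binds JAM-C on the facing cell. Normalized counts of *Jam2* were 4004, 3899 and 3226 in KO and 4320, 1725 and 5534 in WT replicates 1 to 3. WT replicate 2 was the lowest and WT replicate 3 the highest, with the KO cultures between them. The log2 fold change of *Jam2* by edgeR was -0.06 ± 0.40 (SE, adjusted p = 0.967). It turned to 0.29 without WT replicate 3 and reached -0.42 without WT replicate 2.

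*Jam3* (JAM-C) lies on chromosome 9 from 27097384 to 27155421, where an antisense gene overlaps it. The libraries kept the strand, but whether the counting used it is not given in the sources used here. Its normalized counts were 2670, 2611 and 2908 in KO and 2534, 1513 and 2905 in WT replicates 1 to 3. Apart from WT replicate 2, the 5 libraries lay within a narrow range. The log2 fold change by edgeR was 0.24 ± 0.24 (SE, adjusted p = 0.770), and without WT replicate 2 it was 0.00017 (adjusted p = 0.9997).

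*F11r* (JAM-A) lies on chromosome 1 from 171437535 to 171464603 and encodes a JAM that recruits polarity proteins to young contacts. Normalized, *F11r* had 41.4, 82.7 and 37.9 counts in KO and 46.9, 249.7 and 35.3 in WT replicates 1 to 3. WT replicate 2 had 6.07 times the mean of the other WT cultures, and the 4 libraries other than it and KO replicate 2 lay between 35.3 and 46.9. Mean counts were 54.0 ± 24.9 (SD, n = 3) in KO and 111 ± 121 (SD, n = 3) in WT. The edgeR estimate on the log2 scale was -1.03 ± 0.82 (SE), adjusted p = 0.687. Without WT replicate 2 the direction turned, with a log2 fold change of 0.39 ± 0.46 (SE, adjusted p = 0.701).

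Reads were divided by transcript length to compare levels between the JAM genes. *Jam3* made up 54.7% to 62.4% of the family in KO and 49.4% to 55.5% in WT cultures, and *Jam2* made up 36.6% to 43.8% and 33.5% to 49.8%. *F11r* held 11.01% in WT replicate 2 and 0.722% to 2.08% in the other 5 libraries. The share of *Jam3* was 57.4% ± 4.31 (SD, n = 3) in KO and 52.3% ± 3.04 (SD, n = 3) in WT (exact two-sided permutation test, p = 0.3). For *Jam2* and *F11r* the exact permutation p was 0.7 and 0.8. With 3 against 3 cultures such a test cannot go below 0.1.

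No claudin passed the adjusted threshold, and single cultures stood far from the rest for *Cldn1* and *Cldn11*. *Cldn1*, on chromosome 16 from 26356642 to 26371841, encodes a sealing claudin that is best known from epithelia. The *Cldn1* counts after normalization were 337, 310 and 170 in KO and 570, 15397 and 209 in WT replicates 1 to 3. WT replicate 2 had 39.5 times the mean of the other WT cultures, and the remaining WT values, 570 and 209, overlapped those of KO. Mean counts were 273 ± 89.4 (SD, n = 3) in KO and 5392 ± 8666 (SD, n = 3) in WT. The edgeR estimate on the log2 scale was -4.31 ± 1.62 (SE), with an adjusted p of 0.373 (0.0352 unadjusted) in the quasi-likelihood test. Without WT replicate 2 the log2 fold change of *Cldn1* was -0.52 ± 0.48 (SE, adjusted p = 0.608). DESeq2 gave *Cldn1* no p.

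Other genes also set WT replicate 2 apart, in both directions within most marker lists. Among the 12 mural genes tested it was the highest library for 3 and the lowest for 5. *Acta2*, a smooth muscle actin, had 16275 normalized counts there against 29.3 to 1204 elsewhere, while *Pdgfrb*, a receptor of pericytes, had 7793 against 14685 to 18992. Of 14 fibroblast genes it was the highest for 6, among them *Col1a1*, and the lowest for 7, among them *Pdgfra*. Of 12 endothelial genes it was the highest for 6, *Cdh5* and *Flt1* among them, and the lowest for 5, *Emcn* and *Eng* among them. All 11 macrophage genes and all 4 melanocyte genes tested were lowest in it. Of 9 epithelial genes, 6 were lowest in it, with *Epcam* at 2 reads, and 1 was highest: *Krt19*, a keratin of simple epithelia, had 83.6 normalized counts there against 0.978 to 39.96 elsewhere. The part of these differences in its *Cldn1* level was not tested.

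*Cldn11*, on chromosome 3 from 31149920 to 31164324, encodes the claudin of the basal cells of the stria vascularis and of myelin. Its normalized counts were 408, 431 and 6.63 in KO and 618, 990 and 215 in WT replicates 1 to 3. KO replicate 3, with 7 reads, had 0.0158 times the mean of the other KO cultures. The other 5 libraries lay between 215 and 990, and the genotypes overlapped through WT replicate 3. Mean counts were 282 ± 239 (SD, n = 3) in KO and 608 ± 387 (SD, n = 3) in WT. The edgeR estimate on the log2 scale was -1.11 ± 1.18 (SE), adjusted p = 0.779. It was -0.54 without KO replicate 3 and -0.57 without WT replicate 2. The 10 listed Schwann cell genes summed to 8364 normalized counts in KO replicate 3 and to 7172 and 7192 in the other KO cultures.

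*Cldn12* lies on chromosome 5 from 5489537 to 5514958. It encodes a claudin that was described in brain endothelium. The *Cldn12* counts after normalization were 1606, 1617 and 1648 in KO and 1686, 1066 and 2260 in WT replicates 1 to 3. The KO cultures differed by less than the counts of most genes do, with an SD of log2 counts of 0.0194 that was lower in 1.95% of all genes tested. The log2 fold change by edgeR was -0.04 ± 0.26 (SE, adjusted p = 0.964). It turned to 0.23 without WT replicate 3 and was -0.29 without WT replicate 2.

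The table listed 31 claudin genes, of which 12 had no read in any library and 10 were tested. Per length, *Cldn12* was the leading claudin in 5 of 6 cultures, with 35.6% to 82.0% of the family. In WT replicate 2 it held 6.32%, and *Cldn1* held 79.7% there against 5.10% to 10.5% elsewhere. *Cldn11* held 0.745% of the family in KO replicate 3 and 13.3% to 29.5% in the other libraries. The shares of *Cldn12* were 59.1% ± 20.03 (SD, n = 3) in KO and 35.1% ± 28.5 (SD, n = 3) in WT, a difference of 24.1 percentage points (exact two-sided permutation test, p = 0.4). For *Cldn1* the exact permutation p was 0.6 and for *Cldn11* it was 1. Without WT replicate 2 the difference for *Cldn12* was 9.69 percentage points. The sum of all claudins was 747, 859 and 476 normalized counts per kb in KO and 1121, 3990 and 844 in WT replicates 1 to 3.

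**Figure D2:**
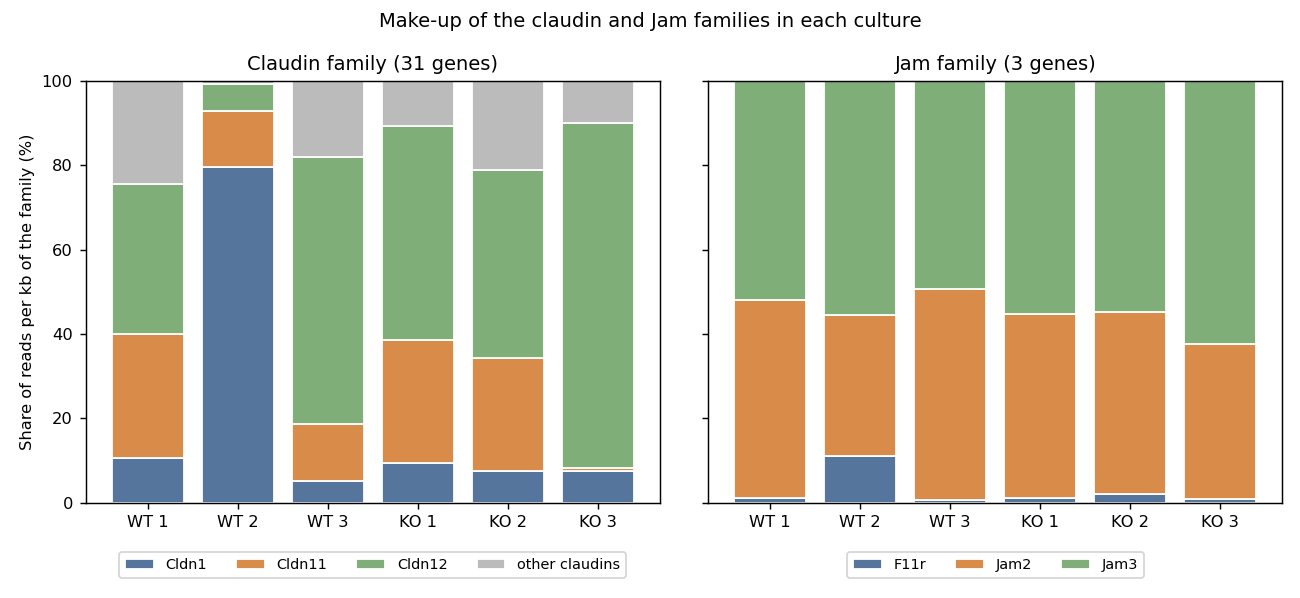
Share of each gene in the reads per kb of transcript of the claudin family (left, 31 genes) and the Jam family (right, 3 genes), 1 bar per culture. *Cldn12* leads in every culture but WT replicate 2, where *Cldn1* holds 79.7%. *F11r* is visible in WT replicate 2, at 11.01% of the Jam family.

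*Ocln* lies on chromosome 13 from 100496507 to 100552718 and encodes occludin, a marker protein of tight junctions in epithelia and barrier endothelium. It had 7, 18 and 4 reads in KO and 23, 5 and 9 reads in WT replicates 1 to 3. The genotypes overlapped (exact two-sided permutation test, p = 0.6). It was tested in 6 alternatives, with adjusted p between 0.613 and 0.994. Normalized, this was 9.32 ± 6.67 in KO against 12.4 ± 8.999 in WT (SD, n = 3 each). The libraries with most *Ocln* reads, WT replicate 1 and KO replicate 2, also had most reads of the 13 listed epithelial genes, with sums of 1300 and 1025 normalized counts against 87.7 to 581 in the other 4 libraries. Without WT replicate 1 the KO mean of *Ocln* was above the WT mean, with a log2 ratio of 0.33. The part of epithelial cells in the *Ocln* reads was not tested.

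Per kb of exon, the mean levels over 6 libraries ran from *Tjp1* (1146 normalized counts per kb) through *Jam3* (789), *Jam2* (626), *Cldn1* (585), *Cldn12* (390), *Cldn11* (238), *Cgnl1* (93.5) and *F11r* (30.9) to *Ocln* (2.58). *Tjp1* was above 92.2% of all genes tested on this scale. In KO cultures *Tjp1* (861 ± 45.8, SD, n = 3) and *Jam3* (853 ± 49.2, SD, n = 3) did not differ beyond their spread. *Cldn1* owed its place to WT replicate 2: in KO cultures it had 56.3 ± 18.5 (SD, n = 3) normalized counts per kb. This was near *Cgnl1* at 71.3 ± 3.89 (SD, n = 3), and the KO ranges of these genes overlapped. The KO range of *Cldn11*, 3.54 to 231, overlapped those of *Cgnl1*, *Cldn1* and *F11r*.

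**Figure D3:**
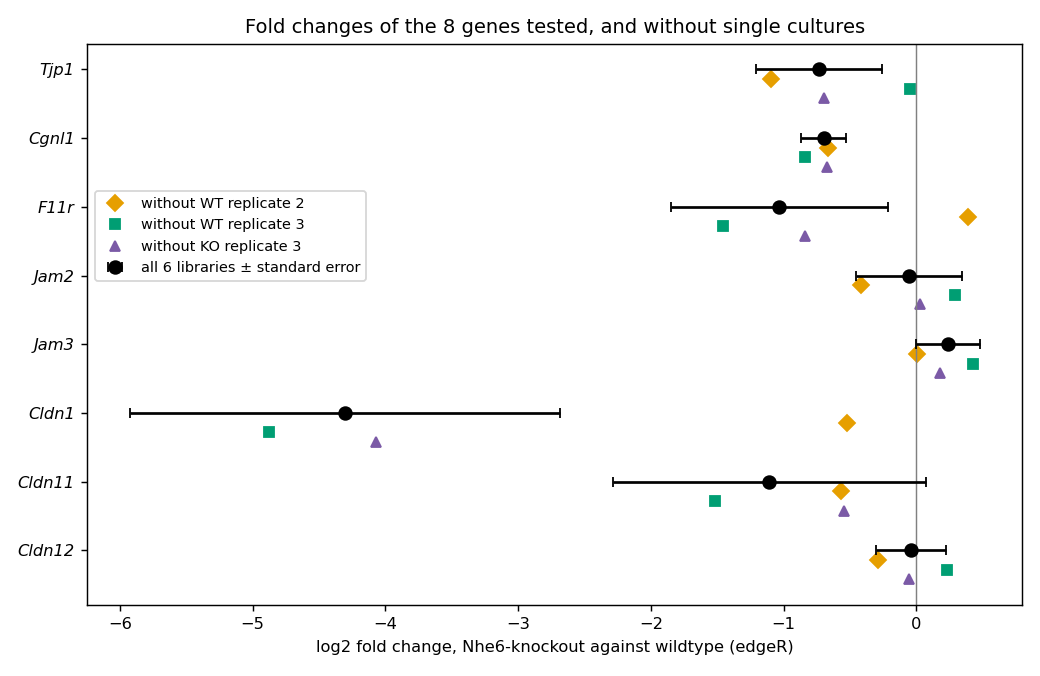
Log2 fold change of KO against WT for the 8 genes tested, with bars of 1 standard error, and the values without WT replicate 2, WT replicate 3 or KO replicate 3. *Cgnl1* changes little between these fits, *Cldn1* goes from -4.31 to -0.52 without WT replicate 2, *F11r* turns to 0.39 without it, and *Tjp1* is at -0.05 without WT replicate 3.

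Variation between the WT cultures was large for most of the 8 genes. The SD of log2 counts over WT cultures was 3.24 for *Cldn1*, 1.51 for *F11r*, 1.12 for *Cldn11* and 1.01 for *Tjp1*, and its median over the 8 genes was 0.95, against 0.343 over all genes tested. Likeness of log2 counts across the 6 libraries is given as a description, since all genes share these libraries and WT replicate 2 weighs on most values. *Jam2* was most like *Cldn12* among 46 tight junction genes (Pearson r = 0.96, Spearman's rank correlation 0.77, 6 libraries), and both were lowest in WT replicate 2. *F11r* was most like *Cldn1* (r = 0.92, rank correlation 0.77), and both were highest in it. *Jam3* was most like *Cldn12* (r = 0.89, rank correlation 0.49), *Tjp1* most like *Cxadr* (r = 0.92, rank correlation 0.77) and *Cgnl1* most like *Ildr2* (r = 0.82, rank correlation 0.71). *Cldn11* followed *Ybx3* (r = 0.92, rank correlation 1) and *Ocln* followed *Lsr* (r = 0.94, rank correlation 0.94).

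The wider tight junction list held 70 genes of the table, of which 46 were tested, the 8 genes above included. In edgeR's test 0 of the 46 had an adjusted p under 0.05. At an unadjusted p under 0.05 the list had 7 lower and 4 higher genes, against 5.71% lower and 6.14% higher of all genes. The median log2 fold change of the list was -0.22, and 32 of the 46 values were below 0 and 14 above it, against 6998 of 13479 below 0 over all genes. Some of these values rested on few reads with wide errors, such as *Cldn9* at -0.98 ± 1.70 (SE). Whether the list median depends on single cultures, as that of the 8 genes did, was not tested. DESeq2 gave 4 genes, *Cgnl1*, *Ildr2*, *Mllt4* and *Tjap1*, against 4.65% of all genes. Without WT replicate 2, edgeR gave 2 of 53, *Mllt4* and *Cxadr*, against 2.88% of all genes.

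*Ildr2* encodes angulin-3, a protein of the tricellular contacts where 3 cells meet, and it had the highest level of the list per kb. Its normalized counts were 23648, 22582 and 15499 in KO and 41326, 52088 and 53570 in WT replicates 1 to 3. Each KO culture was below each WT culture, with a log2 fold change of -1.25 ± 0.24 (SE, adjusted p = 0.112). *Mllt4* encodes afadin, the link from nectins to actin, and had 1812, 1842 and 1768 normalized counts in KO and 2764, 5365 and 3454 in WT replicates 1 to 3. Its genotypes did not overlap either. The log2 fold change of *Mllt4* by edgeR was -1.09 ± 0.25 (SE, adjusted p = 0.153), and without WT replicate 2 it was -0.79 with an adjusted p of 0.0420.

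In the other direction, *Tjap1*, a tight junction-associated protein, had 790 ± 46.1 normalized counts (SD, n = 3) in KO and 485 ± 88.3 (SD, n = 3) in WT cultures, a log2 fold change of 0.70 ± 0.17 (SE, adjusted p = 0.185). *Amot* and *Amotl1*, which encode angiomotins that bind polarity proteins, had log2 fold changes of 0.53 (adjusted p = 0.331) and 0.59 (adjusted p = 0.387). *Clmp*, a JAM-related adhesion protein, had 0.45 (adjusted p = 0.370). *Pard3b*, a relative of the polarity protein Par3, had -0.70 (adjusted p = 0.319), *Cldnd1* had -0.20 (adjusted p = 0.689) and *Ybx3*, a factor that binds ZO-1, had -0.26 (adjusted p = 0.790).

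**Figure D4:**
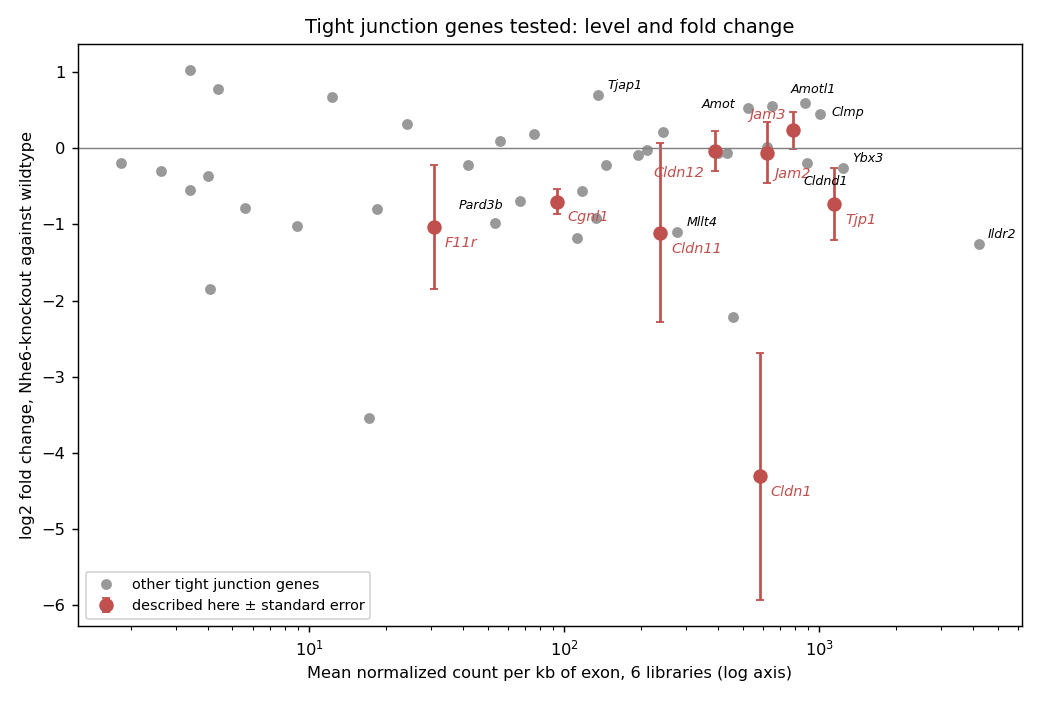
Mean normalized count per kb of exon over 6 libraries (log axis) against the log2 fold change of KO against WT for the 46 tight junction genes tested, with bars of 1 standard error for the 8 genes described in full. *Ildr2* has the highest level, and *Cldn1* has the lowest fold change and the widest bar.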

How the data were processed

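Poly(A)-enriched, stranded libraries of 3 *Nhe6*-knockout and 3 wildtype cultures were sequenced. The authors deposited raw counts of reads per gene symbol, without normalization. The submitters' processing notes name mm10, STAR 2.7.7a and HTSeq 0.13.5 for such files and DESeq2 1.26.0, and the counting options are not given in the sources used here. The 5 summary lines of the table (22.2% of reads) were left out.

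Genes were filtered with filterByExpr (minimum count 10), which left 13479 of 24421. After TMM normalization, genotype was the only term of a two-sided quasi-likelihood test (edgeR 4.0.16, R 4.3.3). Benjamini-Hochberg adjustment covered every gene tested, and the threshold was 0.05. Normalized counts are scaled to the mean library size. The standard error is the fold change divided by the square root of F. Fold changes are KO against WT. SDs of log2 counts and likeness used a pseudocount of 1. Exon lengths and positions came from GENCODE M21 (GRCm38), which covered 98.5% of the genes. Shares within a family used all family genes in the table.

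The members and lists were chosen with earlier results of these data known. All members were named. Of the other listed tight junction genes, *Cldn5*, the 5 highest per kb, the 5 with the smallest p and any gene called were named. Some genes are not reported here. Lists of marker genes covered endothelial, mural, fibroblast, macrophage, melanocyte, epithelial, strial marginal, Schwann and cell cycle genes. Alternatives were other normalizations and filters, DESeq2 1.42.0, limma-voom (limma 3.58.1), a block for the replicate number, leaving out each culture and, chosen after seeing the data, KO replicates 1 and 2 summed. The edgeR, DESeq2 and limma-voom tests were tried on simulated counts. The other alternatives, the permutation tests and the shares were not. P-values set the difference between genotypes against the spread between these cultures.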

Additional observations from a re-analysis of the deposited data

How the results depend on the processing

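Across 14 alternatives, 13 of them planned, the number of the 8 genes past the threshold was 0 except with DESeq2, which gave 1. For the tight junction list it was 4 with DESeq2, 0 to 2 without 1 culture and 0 in the other alternatives. Over all genes the number was 9, against 21 without a filter, 21 with at least 10 counts in every library, 627 with DESeq2, 0 to 395 without 1 culture (395 without WT replicate 2) and 1 with KO replicates 1 and 2 summed. With the replicate block it was 2. Same-numbered libraries did not deviate together (correlations of deviations 0.207, -0.189 and 0.111), and KO replicates 2 and 3 did not correlate best with their own number, so no pairing was used.

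*Cgnl1*, *Tjp1*, *Cldn1*, *Cldn11* and *Jam3* kept the sign of their log2 fold changes under each alternative that gave them a value. However, *Jam3* was at 0.00017 without WT replicate 2 and *Tjp1* at -0.05 without WT replicate 3, both within their standard errors. *Jam2* turned to 0.0964 with limma-voom and 0.0875 with the replicate block, and *Cldn12* to 0.0262 and 0.0235. *Cldn1* moved to -2.24 and -1.92 and *Cldn11* to -2.29 and -1.87 in the same alternatives. Without 1 culture, the log2 fold change ran from -0.42 to 0.29 for *Jam2*, -0.29 to 0.23 for *Cldn12* and -1.48 to 0.39 for *F11r*, and the log2 ratio of *Ocln* from -1.15 to 0.33. The differences in share ran, in percentage points, from -37.1 to 0.255 for *Cldn1*, -4.99 to 9.24 for *Cldn11*, -4.72 to 0.423 for *F11r* and -7.14 to 1.03 for *Jam2*. Apart from the culture left out, the cause of these changes was not tested. *Cldn11* has no value with at least 10 counts in every library, because KO replicate 3 had 7 reads.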

Other observations

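Some tight junction genes outside the naming rule are given here because their values stood out. *Cxadr*, which encodes a virus receptor of the JAM-related CTX family, had 892, 1036 and 1667 normalized counts in KO and 4216, 267 and 12252 in WT replicates 1 to 3. Without WT replicate 2, the lowest library, it was among the genes past the threshold. *Esam*, an endothelial adhesion molecule, had 5, 16 and 3 reads in KO and 29, 230 and 7 reads in WT replicates 1 to 3. WT replicate 2 was again the highest, as for *Cldn1*, *F11r* and *Cldn11*. *Cldn9*, a claudin of cochlear epithelium, had 23, 139 and 2 reads in KO and 206, 0 and 99 reads in WT replicates 1 to 3, and *Cldn4* had 11, 60 and 6 and 81, 0 and 45 reads. Their high libraries, KO replicate 2 and WT replicates 1 and 3, were also those with the most *Epcam* and *Cdh1* reads. The angulin *Ildr1* had 36, 36 and 16 reads in these 3 libraries and at most 1 in the others, unlike its relative *Ildr2*.

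Marker lists were described by their calls in edgeR's test. Of 12 endothelial genes tested, 1 (*Cdh5*) had an adjusted p under 0.05 and was lower in KO, against 0.0668% of all genes. The count was 0 of 12 mural, 0 of 14 fibroblast, 0 of 11 macrophage, 0 of 4 melanocyte, 0 of 9 epithelial, 0 of 3 strial marginal, 0 of 8 Schwann and 0 of 16 cell cycle genes. At an unadjusted p under 0.05, where all genes had 5.71% lower and 6.14% higher in KO (11.8% in all), the endothelial list had 3 lower and 1 higher, the mural list 1 lower and 2 higher, and the fibroblast list 1 lower and 1 higher. The macrophage and melanocyte lists had 0. There was 1 higher epithelial gene, 1 lower strial marginal gene, 1 lower Schwann cell gene, and 15 higher cell cycle genes. The fibroblast list had the highest sums, 355469 to 498459 normalized counts per library.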
